A study of Mus musculus with 6 samples.

Results

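The neurotrophic factors and their receptors in this report are 8 mouse genes: the ligand genes Bdnf, Ntf3 and Gdnf, the receptor genes Ntrk2, Ntrk3, Ngfr and Sort1, and Vgf, which encodes a neurosecretory protein induced by neurotrophins. They were chosen by gene symbol among the 41386 genes of the deposited hippocampal RNA-seq table. A row named for 7 of them was found directly. The row of Ntrk2 carried no name and was found from the KEGG gene link on it, and 6 of 6 neighbouring genes matched the neighbours of Ntrk2 in the mouse reference annotation. All 8 genes passed the filter on low counts, which left 18569 genes for testing, but Gdnf passed it only through its I/R counts.

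The study compared the hippocampus on the injured side of the brain in 2 groups of male C57BL/6 mice (C57BL/6J in the study's methods), aged 56 days; no engineered allele is named. In the ischemia/reperfusion (I/R) group, the middle cerebral artery was closed with a filament over 1.5 h, and reperfusion lasted 24 h. The sham group had the same surgery with no filament placed. Each group had 3 libraries, and several hippocampi were pooled into each library, so the spread below is a spread between pools.

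Neurotrophins are secreted as precursors that proteases cut to mature ligands. Mature BDNF signals through TrkB (the Ntrk2 product), NT-3 through TrkC (Ntrk3), and GDNF through a GFRα co-receptor with Ret, mainly toward survival, growth and synaptic strengthening. Uncut proneurotrophins bind p75NTR (Ngfr) together with sortilin (Sort1), a route known for promoting cell death, and sortilin also sorts BDNF inside the cell. In the hippocampus BDNF is made mainly by excitatory neurons, and its gene is known for a strong response to neuronal activity.

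At 24 h after reperfusion the ligand transcripts moved in different directions and 3 of the 4 receptor transcripts fell. Bdnf was 2.62-fold higher in I/R, and Gdnf went from at most 4 counts in a sham library to between 69 and 230 counts in an I/R library. Ntf3, Ntrk2, Ntrk3 and Sort1 fell to 42.8%, 67.6%, 51.5% and 32.4% of the sham level, and Ngfr was 2.59-fold higher. The Vgf difference (1.13-fold) did not pass the test. In this test 7 of the 8 genes were called, a call being a fold change of more than 1.2 with an adjusted p below 0.05 in edgeR's quasi-likelihood test (Benjamini-Hochberg adjustment over all genes tested), while 41.8% of all genes tested were called. For calls in 1 direction, 3 of the 8 genes were higher and 4 lower, against 21.8% and 19.9% of all genes tested. These counts include Gdnf, which passed the filter through the group in which it was high. With at least 10 counts required in every library Gdnf could not be tested. In that fit 6 of the other 7 genes were called, 2 of them higher. In all 8 genes the values of the 2 groups were fully separate, which held for 57.4% of all genes tested. The 8 genes were chosen with earlier results of these data known. The shares of all genes are therefore given for scale, and no test of the 8 genes as a set was run.

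The libraries held 37493042 to 44788547 counts. Levels are given as CPM, counts per 1000000 after TMM scaling (trimmed mean of M-values) of the library sizes, and per-length levels as the deposited FPKM, fragments per kilobase of gene length, relative to the library total. The hippocampal markers Prox1 (dentate granule cells), Wfs1 and Fibcd1 (both CA1) were present in every library, at 69.3 to 149, 64.5 to 164 and 23.6 to 206 CPM. Summed over 8 choroid plexus markers, I/R replicate 3 and sham replicate 1 stood apart at 34 and 36.7 CPM, against 1615 to 4470 CPM in the other 4 libraries. Calls that change without these 2 libraries are therefore given with both values. This covers the 8 genes, the other ligand and receptor genes and the list genes named by the rule given with the processing. It does not cover cell type markers or genes named after their values had been seen. Among the I/R libraries, replicate 1 had the lowest sum over 7 neuronal markers (1776 CPM, against 3213 and 3606) and the highest over 7 neutrophil markers (40.3 CPM, against 9.86 and 10.2). In bulk tissue, fewer cells of a type and less RNA per cell cannot be told apart.

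**Figure D1:**
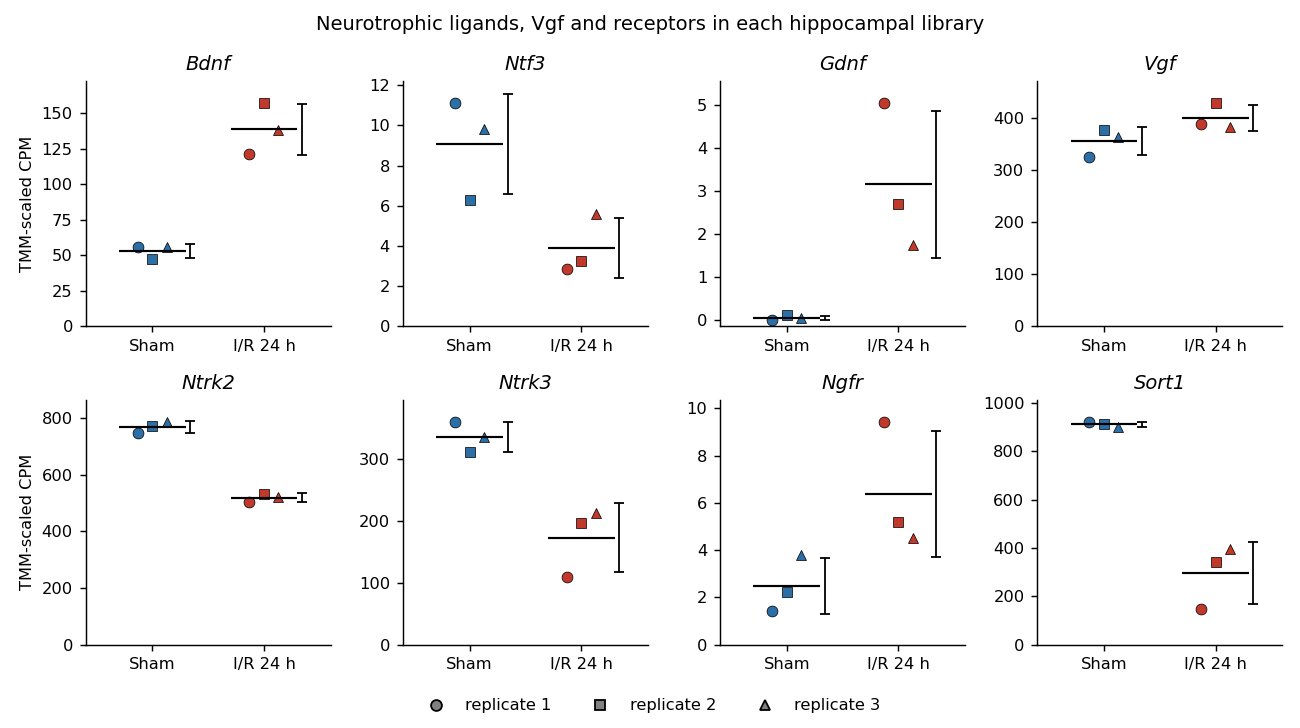
TMM-scaled CPM of the 8 genes in each library, with 1 point per library, a line at the mean of 3 and a bar of 1 SD. The vertical axes start at 0 (for Gdnf just below) and differ between genes. The groups do not overlap in any of the 8 genes, and I/R replicate 1 is the highest I/R library for Gdnf and Ngfr and the lowest for Bdnf, Ntrk2, Ntrk3, Sort1 and Ntf3.

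The sequences just upstream of the transcription start are shown for the 3 genes that rose and 1 that fell, because activity-dependent transcription of Bdnf is known to act through cyclic AMP response elements (CRE) near its starts. They are RefSeq windows on the mouse reference build GRCm38.p6, not on the BALB/cJ assembly of the deposited table, and run 150 bases up to the start, 5′ to 3′, with capitals marking the CRE hexamer ACGTCA. Windows were given for 5 of the 8 genes (13 windows in all, 7 of them for Bdnf). The Bdnf window is number 3 of 7 and the Gdnf window number 1 of 2. These are the only 2 of the 13 windows that hold the hexamer. The other windows of Bdnf and Gdnf and those of Ntf3 lack it and are not printed. What is printed is therefore not a fair sample of the windows.
Bdnf, chr2:109692286-109692435 (+ strand): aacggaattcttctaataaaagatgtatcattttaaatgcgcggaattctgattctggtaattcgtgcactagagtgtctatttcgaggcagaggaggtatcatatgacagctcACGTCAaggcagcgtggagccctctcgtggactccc
Gdnf, chr15:7809898-7810047 (+ strand): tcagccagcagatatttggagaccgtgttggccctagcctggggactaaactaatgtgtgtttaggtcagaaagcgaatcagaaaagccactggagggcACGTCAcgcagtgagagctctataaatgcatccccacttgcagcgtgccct
Ngfr, chr11:95587699-95587848 (- strand): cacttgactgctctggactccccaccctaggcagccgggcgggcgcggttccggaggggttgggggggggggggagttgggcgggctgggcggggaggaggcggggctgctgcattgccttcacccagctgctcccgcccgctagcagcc
Ntrk2, chr13:58806419-58806568 (+ strand): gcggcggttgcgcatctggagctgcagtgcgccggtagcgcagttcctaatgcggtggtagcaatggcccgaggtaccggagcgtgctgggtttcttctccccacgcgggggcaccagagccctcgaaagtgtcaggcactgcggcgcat

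The hexamer ACGTCA, searched on both strands in the 250 bases before the start, was in 2 of the 13 windows, those printed for Bdnf and Gdnf, at 36 and 51 bases before the start. Of 32851 such mouse windows, 6.47% held it. The full site TGACGTCA, which contains the hexamer on both strands, was in 0 of the 13 windows and in 1.55% of all windows. The AP-1 site TGANTCA, the binding site of Fos and Jun dimers, was in 1 of the 13 windows (Bdnf window 2) and in 6.75% of all windows. The E-box CACGTG was in 1 window (Ntf3 window 1) and in 6.02% of all, and the GC box GGGCGG, which occurs 4 times in the Ngfr window, was in 5 of the 13 windows and in 32.7% of all. These letters were chosen after the windows had been read, and a match describes the sequence only. The counts are per gene, so they do not tell which of the Bdnf starts was used.

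Among the ligands, Bdnf encodes brain-derived neurotrophic factor (MGP_BALBcJ_G0026210, BALB/cJ chr2:107597053-107649357, + strand). It had 121, 157 and 138 CPM in I/R replicates 1, 2 and 3 and 55.8, 47.3 and 55.9 CPM in sham replicates 1, 2 and 3. Every I/R library was above every sham library, and the lowest I/R library was the one with the lowest neuronal markers. The mean was 139 ± 18.3 CPM in I/R, against 53 ± 4.9 CPM in sham (SD, n = 3 each), a log2 fold change of 1.39 (SE 0.12, adjusted p = 0.000353). All 17 refits of the test across genes, by other scalings, tools, filters or without 1 library, called it, at log2 fold changes between 1.27 and 1.64.

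Gdnf encodes glial cell line-derived neurotrophic factor, a ligand of another family that signals through Ret (MGP_BALBcJ_G0021670, BALB/cJ chr15:4630886-4658093, + strand). It had 230, 107 and 69 counts in I/R, against 0, 4 and 1 counts in sham, which is 5.05, 2.68 and 1.73 CPM against 0, 0.0984 and 0.0291 CPM. In sham it was at or near the floor of 3 counts (0.0738 to 0.0872 CPM) in every library, and it was clearly detected in all 3 I/R libraries, most in replicate 1. The summed counts were 406 in I/R, against 5 in sham, a ratio of 73.8 after division by the TMM-scaled library sizes (exact 95% interval 31.4 to 229, for counting error only). The edgeR log2 fold change was 6.08 (SE 0.75, adjusted p = 0.00101), and it moved between 5.50 and 7.55 when 1 library was left out, with a sham level that rests on 5 counts in all.

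The genes whose level over the 6 libraries lay nearest to that of Gdnf, by the root mean square difference of log2(CPM + 0.01), each gene centred on its sham mean, among 14050 named genes of at least 1 CPM on average, included H19 (0.51), Spp1 (0.91), Chil3 (0.92) and Gdf15 (0.93). H19 had 6.55, 2.28 and 3.9 CPM in I/R, against 0, 0.197 and 0.0581 CPM in sham. Spp1, the secreted phosphoprotein osteopontin, had 1082, 532 and 431 CPM in I/R against 7.96 to 11.7 CPM in sham. These 4 genes, like Gdnf, were highest in I/R replicate 1 and near 0 or low in sham. The distances rest in part on the sham libraries, where Gdnf had 5 counts in all. With so small an added constant, the order of these genes is therefore uncertain. Over the same libraries the summed monocyte and macrophage markers rose from 13.9 to 17.7 CPM in sham to 101 to 163 CPM in I/R, with 163 in replicate 1, and their part in the Gdnf difference was not tested.

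Ntf3 encodes neurotrophin-3 (MGP_BALBcJ_G0031279, BALB/cJ chr6:124188752-124253127, − strand), a ligand made in the dentate gyrus. It had 2.83, 3.25 and 5.58 CPM in I/R, against 11.1, 6.3 and 9.82 CPM in sham. The groups did not overlap, but the highest I/R library and the lowest sham library lay close together. The mean was 3.89 ± 1.48 CPM against 9.09 ± 2.5 CPM (SD, n = 3 each), a log2 fold change of -1.23 (SE 0.31, adjusted p = 0.0155). The call was lost without I/R replicate 2, sham replicate 1 or sham replicate 3 (adjusted p = 0.0531, 0.0595 and 0.0533), with the gene lower in I/R each time. All 8 dentate granule cell markers were called lower too, beside 19.9% of all genes tested. Their summed level was 227 to 334 CPM in I/R, against 588 to 655 CPM in sham. The smallest of these falls, that of Pdzd2 (-0.27, SE 0.07), was called in 7 of 17 refits. The part of these cells in the Ntf3 difference was not tested.

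Vgf (MGP_BALBcJ_G0030192, BALB/cJ chr5:136957969-136965290, + strand) encodes a secreted precursor of neuropeptides whose transcription neurotrophins raise. It had 390, 429 and 384 CPM in I/R, against 326, 378 and 364 CPM in sham. The groups stood next to each other without overlap, with 378 CPM the highest in sham and 384 CPM the lowest in I/R. The log2 fold change was 0.17 (SE 0.11, adjusted p = 0.245), which did not pass the test. The result depends on the scaling: with library size alone it was 0.43 (adjusted p = 0.0101), a scaling that moves the median log2 fold change of all genes from 0.03 to 0.28, so relative to that median the Vgf difference was small under both.

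Among the receptors, Ntrk2 (MGP_BALBcJ_G0020586, BALB/cJ chr13:56554304-56876124, + strand) encodes TrkB, the signalling receptor of BDNF. It had 504, 534 and 521 CPM in I/R, against 749, 772 and 788 CPM in sham. The libraries within each group lay close together and the groups were far apart. The mean was 520 ± 15.4 CPM against 770 ± 19.5 CPM (SD, n = 3 each), a log2 fold change of -0.57 (SE 0.11, adjusted p = 0.00473). The size of the fall depends on the scaling. With library size alone it was -0.31 (adjusted p = 0.0277), a scaling that moves the median of all genes from 0.03 to 0.28. Without the 2 libraries low in choroid plexus markers the log2 fold change was -0.60, and with 2 libraries a group it no longer passed (adjusted p = 0.0522). The GENCODE M21 annotation gives Ntrk2 10 transcripts, 7 of them protein-coding. The counts are per gene, so full-length TrkB and the truncated TrkB made mainly by astrocytes cannot be told apart. Of 8 astrocyte markers, 5 fell and 2 rose, among them the glutamate transporter gene Slc1a2 (-0.96, SE 0.20, adjusted p = 0.00756) and the intermediate filament gene Gfap (2.31, SE 0.17, adjusted p = 0.000269), and the part of these cells in the Ntrk2 difference was not tested.

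Ntrk3 (MGP_BALBcJ_G0032368, BALB/cJ chr7:77862167-78428078, − strand) encodes TrkC, the receptor of NT-3. It had 110, 197 and 213 CPM in I/R, against 361, 312 and 337 CPM in sham. All I/R libraries were below all sham libraries, and I/R replicate 1 was well below the other two. The mean was 173 ± 55.6 CPM against 337 ± 24.7 CPM (SD, n = 3 each), a log2 fold change of -0.96 (SE 0.23, adjusted p = 0.0121), between -1.16 and -0.72 when 1 library was left out. The gene overlaps the antisense gene Gm9885, which held 621 counts in I/R, against 954 in sham over 3 libraries. Use of read strand in the counting is not given in the sources used here, so some reads of the pair could be exchanged, although Ntrk3 had 4994 to 14099 counts in each library.

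Ngfr (MGP_BALBcJ_G0018926, BALB/cJ chr11:94312015-94330875, − strand) encodes p75NTR, the receptor that binds all neurotrophins and, with sortilin, their precursors. It had 429, 208 and 180 counts in I/R, against 55, 91 and 130 counts in sham, which is 9.43, 5.2 and 4.5 CPM against 1.41, 2.24 and 3.78 CPM. I/R replicate 1 was highest, and sham replicate 3 came close to I/R replicate 3. The mean was 6.38 ± 2.66 CPM against 2.48 ± 1.2 CPM (SD, n = 3 each), a log2 fold change of 1.37 (SE 0.41, adjusted p = 0.029). The call was lost in more of the refits than that of any other of the 8 genes: it did not hold with the replicate numbers as a block (1.38, adjusted p = 0.063), without sham replicate 1 (1.08, adjusted p = 0.0842), without sham replicate 2 (1.30, adjusted p = 0.105) or without the 2 libraries low in choroid plexus markers (1.28, adjusted p = 0.0573).

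Cell types other than hippocampal neurons are known to express Ngfr, among them Schwann cells, vascular mural cells and projecting cholinergic neurons. The Schwann cell gene Pmp2 was at 0 in all 6 libraries, and the 5 Schwann cell markers summed to 20.5 to 21.9 CPM in I/R, against 18.7 to 23 CPM in sham. Of the 3 Schwann cell markers that could be tested, Prx rose (0.92, SE 0.25, adjusted p = 0.0195), without overlap of the groups, and Scn7a and Cdh19 did not pass. The cholinergic gene Chat had at most 3 counts in any library. Summed markers of meningeal and perivascular fibroblasts were at 190 to 289 CPM in I/R, against 145 to 172 CPM in sham, and those of pericytes and smooth muscle overlapped between groups (177 to 236 against 186 to 210 CPM). This sum hides changes in both directions, since 5 of the 7 mural genes passed, with rises of Kcnj8 (1.31, SE 0.25), Tagln (0.89, SE 0.23) and Pdgfrb (0.69, SE 0.21) and falls of Myh11 (-0.84, SE 0.17) and Rgs5 (-0.43, SE 0.13; median of the list 0.32). The fibroblast list was highest in I/R replicate 1, as Ngfr was, but this was not particular to fibroblasts. The sums for pericytes and smooth muscle (236 CPM), endothelium (774 CPM), neutrophils (40.3 CPM) and monocytes and macrophages (163 CPM) were also highest there among the I/R libraries. The part of these cell types in the Ngfr difference was not tested.

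Sort1 (MGP_BALBcJ_G0027745, BALB/cJ chr3:106044836-106122308, + strand) encodes sortilin. It had 149, 343 and 395 CPM in I/R, against 922, 911 and 902 CPM in sham. The sham libraries were nearly equal, and each I/R library lay far below them, replicate 1 most. The mean was 296 ± 129 CPM against 912 ± 10.3 CPM (SD, n = 3 each), a log2 fold change of -1.62 (SE 0.32, adjusted p = 0.00538), the largest fall among the 8 genes. It was called in every refit, at -1.92 to -1.31 when 1 library was left out.

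The 5 genes nearest to Sort1 over the 6 libraries were Nell2 (0.04), Rapgefl1 (0.05), Ncdn (0.05), Dnm1 (0.06) and Ptk2b (0.07), by the same root mean square difference in log2 units. Ncdn encodes neurochondrin and Dnm1 the dynamin of presynaptic vesicle recycling. Nell2 had 175, 423 and 498 CPM in I/R, against 1102 to 1157 CPM in sham, and Dnm1 had 280, 639 and 754 CPM in I/R, against 1623 to 1629 CPM in sham. All 7 pan-neuronal markers were called lower in the same libraries, beside 19.9% of all genes tested. Their summed level was 1776, 3213 and 3606 CPM in I/R, against 6176 to 6473 CPM in sham. Summed CA1 and CA3 pyramidal cell markers were at 831, 2218 and 2603 CPM in I/R, against 6967 to 6994 CPM in sham, 7 of the 10 genes having passed the test. The part of these cells in the falls of Sort1 and Ntrk3 was not tested.

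**Figure D2:**
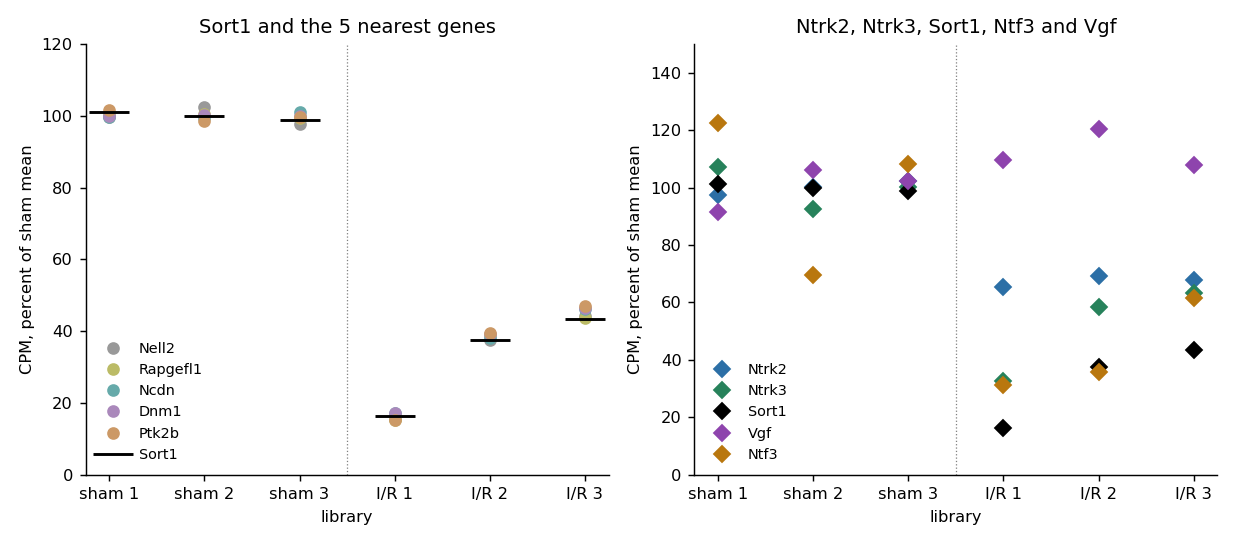
CPM in each library as a percentage of the sham mean, for Sort1 (black dash) and the 5 genes nearest to it (left), and for Ntrk2, Ntrk3, Sort1, Ntf3 and Vgf (right). Left, the 6 genes lie within a few percent of each other in every library. Right, Ntrk2 is at a similar level in the 3 I/R libraries, while Ntrk3 and Sort1 are lowest in I/R replicate 1.

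The I/R libraries lay much closer together for Ntrk2 than for Ntrk3 and Sort1. The SD over the I/R libraries was 2.96% of the mean for Ntrk2, 32.1% for Ntrk3 and 43.7% for Sort1. By FPKM, the order in sham was Vgf (158 ± 10.9), Sort1 (133 ± 1.98), Ntrk3 (124 ± 9.94), Ntrk2 (89.9 ± 2.2), Bdnf (12.3 ± 1.22), Ntf3 (5.91 ± 1.67), Ngfr (0.655 ± 0.32) and Gdnf (0.011 ± 0.0131; SD, n = 3), in which only the neighbours Sort1 and Ntrk3 overlapped. In I/R the order was Vgf (212 ± 12.8), Ntrk3 (75.2 ± 21.5), Ntrk2 (72.5 ± 1.7), Sort1 (50.8 ± 20.7), Bdnf (38.4 ± 3.77), Ntf3 (2.99 ± 1.05), Ngfr (2.04 ± 0.957) and Gdnf (0.997 ± 0.59). There, Ntrk3 overlapped Ntrk2, Sort1 overlapped Bdnf, Ntf3 overlapped Ngfr and Ngfr overlapped Gdnf. The order depends on the gene lengths used. For Ntrk3 the deposited FPKM rests on 2490 bases, and with the 19452 bases that the table lists it was at 15.8 ± 1.27 in sham and 9.63 ± 2.75 in I/R, below Ntrk2 in both groups and below Bdnf (35.4 ± 3.48) in I/R. With the listed lengths the first places in sham were also exchanged, Sort1 being at 122 ± 1.82 and Vgf at 115 ± 7.95 (SD, n = 3).

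Ratios of FPKM within a library do not depend on the scaling of libraries, and 7 ratios chosen after the levels had been seen are given here. The level of Bdnf relative to Ntrk2 was 0.477, 0.586 and 0.527 in I/R, against 0.148, 0.122 and 0.141 in sham. The level of Ngfr relative to Ntrk2 was 0.0424, 0.0221 and 0.0196 in I/R, against 0.00426, 0.00657 and 0.0109 in sham. Both ratios were higher in every I/R library than in every sham library, by 1.95 and 1.97 on the log2 scale, although Ngfr stayed far below Ntrk2 in all libraries. Sort1 relative to Ntrk2 was 0.37, 0.8 and 0.944 in I/R, against 1.54, 1.47 and 1.43 in sham, so the receptor with the higher FPKM of this pair was Sort1 in sham and Ntrk2 in I/R. Bdnf relative to Sort1 was 0.86 ± 0.382 in I/R, against 0.0927 ± 0.00859 in sham, and Bdnf relative to Vgf was 0.181 ± 0.0163 and 0.0785 ± 0.0121 (SD, n = 3 each). Vgf relative to Ntrk2 was 2.93 ± 0.125 in I/R, against 1.76 ± 0.103 in sham. Ntf3 relative to its receptor Ntrk3 was 0.0404 ± 0.00972 in I/R, against 0.0473 ± 0.0101 in sham, with overlapping groups (exact two-sided permutation p = 0.5). The other 6 ratios each had an exact two-sided permutation p of 0.1 (0.117 after Benjamini-Hochberg adjustment over 7), the smallest that 3 libraries against 3 can give.

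**Figure D3:**
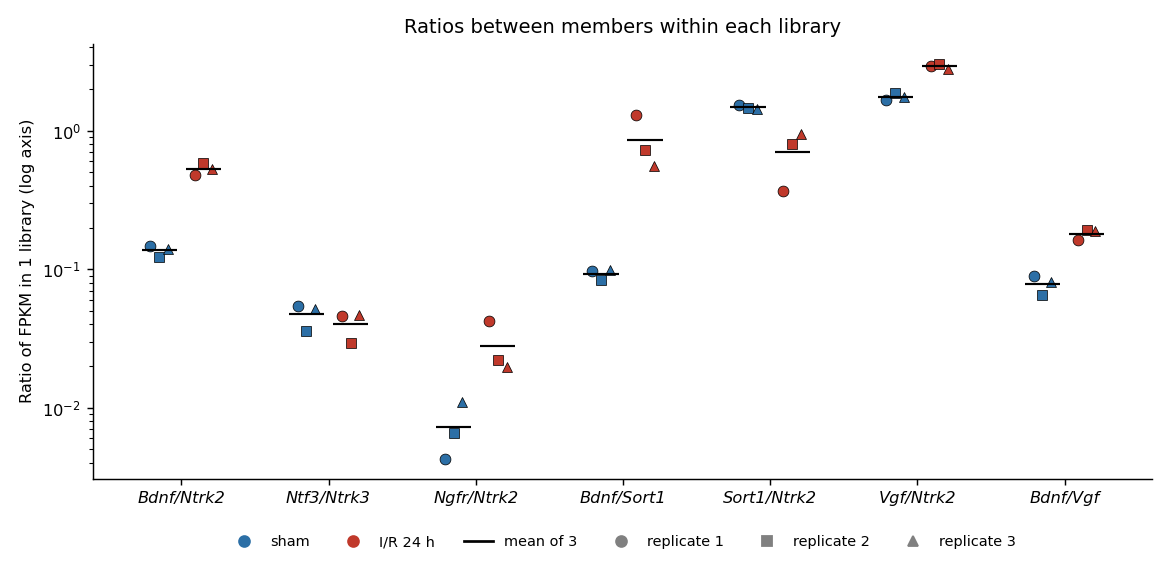
FPKM of 1 gene divided by FPKM of another in the same library, on a log axis, with 1 point per library and a line at the mean of 3. All ratios but Ntf3/Ntrk3 separate the I/R from the sham libraries.

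Of 8 other ligand genes, 6 could be tested, and 2 passed (33.3%, beside 41.8% of all genes tested), Manf (0.90, SE 0.17, adjusted p = 0.00463), whose product is a neurotrophic factor induced by stress of the endoplasmic reticulum, and the Ret ligand gene Artn (1.15, SE 0.40, adjusted p = 0.0499). Artn was at 0.8 ± 0.264 CPM in I/R, against 0.359 ± 0.0102 CPM in sham, and its call was lost without any 1 of the 6 libraries and without the 2 libraries low in choroid plexus markers (1.23, adjusted p = 0.159). Cdnf (0.35, SE 0.33), Nrtn, the neurturin gene (0.02, SE 0.23), and Ntf5, the neurotrophin-4 gene (-0.35, SE 0.77), did not pass, and Pspn (3 to 18 counts a library) and Cntf (1 to 21 counts) were too low to test. The median log2 fold change of the list was 0.43, beside 0.03 over all genes tested.

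Of 17 other receptor and co-receptor genes, 15 could be tested, and 3 rose and 5 fell (53.3% called, beside 41.8% of all genes tested). The falls were in Gfra2 (-1.49, SE 0.13), the co-receptor of neurturin, Rtn4r (-1.30, SE 0.25), the Nogo receptor that works with p75NTR, Sorl1 (-1.17, SE 0.26), a relative of sortilin, Gfra4 (-0.97, SE 0.19) and Kidins220 (-0.56, SE 0.10), a scaffold bound to Trk receptors. The co-receptor of GDNF itself, Gfra1, was at 57.9 ± 2.54 CPM in I/R, against 67 ± 2.17 CPM in sham (-0.21, SE 0.08, adjusted p = 0.0626), and Ret was at 7.68 ± 2.56 and 4.7 ± 0.397 CPM (0.71, SE 0.26, adjusted p = 0.0623), so neither passed, although Ret was called in 4 refits, among them that without I/R replicate 3 and that without the 2 libraries low in choroid plexus markers (0.89, adjusted p = 0.0272). Sorcs1, another sortilin relative, rose (0.53, SE 0.10, adjusted p = 0.0042), while Sorcs2 (-0.00, SE 0.10) and Sorcs3 (-0.19, SE 0.09) did not pass. The row of Sorcs1, like that of Ntrk2, carried no name and was found from its KEGG gene link, with 6 of 6 neighbouring genes matching. The remaining rises were in C3ar1 (4.09, SE 0.27), a receptor that the Vgf-derived peptide TLQP-21 can bind and that immune cells express, and in C1qbp (0.34, SE 0.08). The C1qbp call was lost without sham replicate 3 and without the 2 libraries low in choroid plexus markers (0.37, adjusted p = 0.0821). Lingo1, a partner of the Nogo receptor and p75NTR (-0.78, SE 0.33), and Ncam1, an alternative GDNF receptor (-0.25, SE 0.09), did not pass. The DESeq2 Wald test called both, and Lingo1 was also called without I/R replicate 2 and under the replicate block. Tnfrsf19 (-0.24, SE 0.07, adjusted p = 0.0361) missed the fold change rule. Gfra3 had 4 counts in 1 I/R library and 0 in the others, too low to test.

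**Figure D4:**
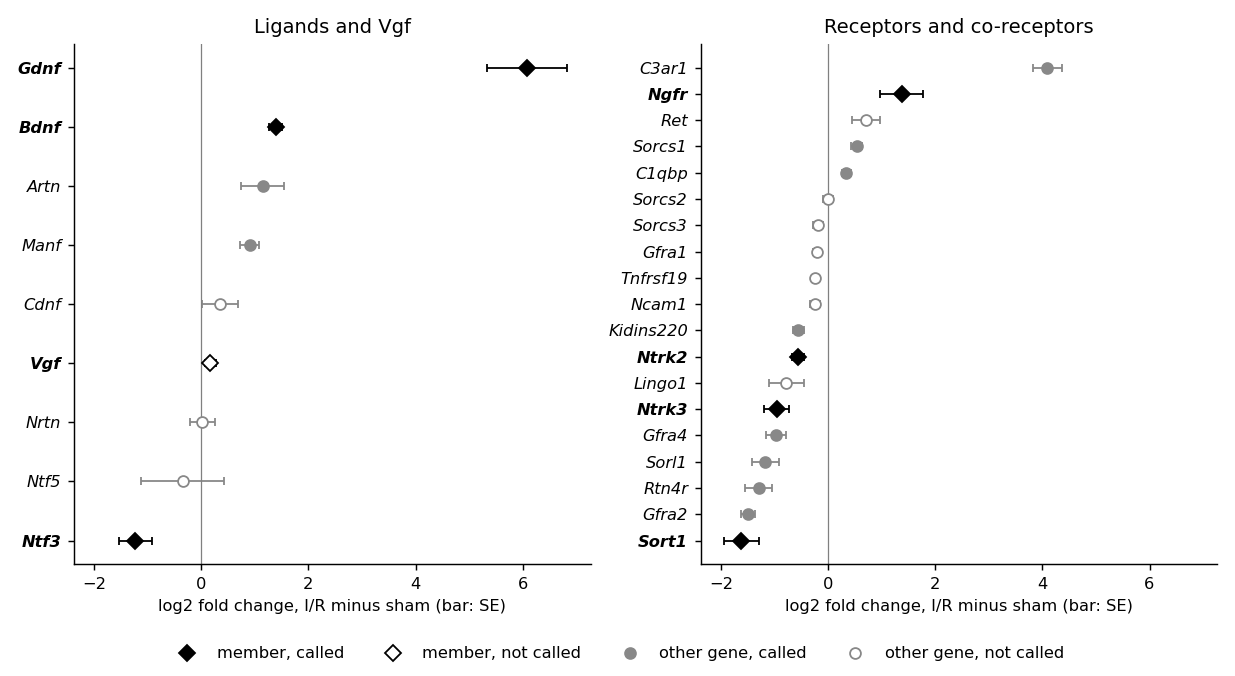
Log2 fold change (I/R minus sham) with its SE from edgeR for the 8 genes (diamonds, bold) and for most of the other ligand and receptor genes tested (circles). Filled symbols were called and open ones were not. Gdnf lies farthest to the right among ligands, and Sort1 farthest to the left among receptors.

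Genes for proteases that can cut proneurotrophins outside the cell, and for their regulators, were among the rises. The list of processing and secretion genes had 24 members tested besides Sort1, of which 9 rose and 7 fell (median 0.09). Mmp3, a matrix metalloprotease gene, had 1548, 930 and 604 counts in I/R, against 0 in every sham library, at least 304-fold higher than the floor of 3 counts a library. Plaur, the receptor gene of urokinase, rose by 5.21 (SE 0.49, adjusted p = 0.000432), the urokinase gene Plau by 2.85 (SE 0.30, adjusted p = 0.000664), the tissue plasminogen activator gene Plat by 0.91 (SE 0.13, adjusted p = 0.00183) and Furin, the intracellular convertase gene, by 0.83 (SE 0.16, adjusted p = 0.00551). Plg, the plasminogen gene, was too low to test, as was Mmp7, with 0 counts in every library. Another matrix metalloprotease gene, Mmp9 (0.61, SE 0.27, adjusted p = 0.105), did not pass. Neither did the serpin genes Serpine2 (0.04, SE 0.10, adjusted p = 0.758) and Serpini1 (-0.54, SE 0.24, adjusted p = 0.103). Genes of the dense-core vesicles that release BDNF were among the falls, with Cadps2 at -1.46 (SE 0.21, adjusted p = 0.00157) and Chgb at -1.12 (SE 0.30, adjusted p = 0.0186). The Chgb call was lost without sham replicate 2, without sham replicate 3 and with no count filter. The granin gene Scg2 moved the other way, at 329, 394 and 380 CPM in I/R, against 214 to 228 CPM in sham (0.73, SE 0.11, adjusted p = 0.00172). Plaur, Plau, Plat, Furin, Scg2, Plg, Mmp7, Mmp9, Serpine2 and Serpini1 were named after their values had been seen.

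Of 24 genes known to regulate Bdnf transcription or its local translation, 4 rose and 11 fell (median -0.30). Npas4, an immediate early transcription factor of neuronal activity that acts on Bdnf promoters, had 171, 179 and 90.5 CPM in I/R, against 8.72 to 11.4 CPM in sham (3.81, SE 0.27, adjusted p = 0.000238). Rest, a repressor that acts on Bdnf, rose as well (1.39, SE 0.14, adjusted p = 0.000547). Camk2a, the calcium-dependent kinase gene of excitatory synapses, fell from 5699 ± 45.1 to 1360 ± 708 CPM (-2.07, SE 0.41, adjusted p = 0.0054), and the CREB coactivator gene Crtc1 fell by 1.28 (SE 0.19, adjusted p = 0.00193). The number of falls depended on the scaling, since with library size alone 4 genes rose and 5 fell.

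Downstream of the Trk receptors, 46 genes were tested, and 7 rose and 13 fell (median -0.17). With library size alone this turned to 15 rises and 8 falls (median 0.08), so no direction is given for the list, and over all genes the share of rises among the calls went from 52.3% to 75.8%. Among the largest changes were rises of the adaptor genes Sh2b2 (1.44, SE 0.16) and Shc1 (1.43, SE 0.30) and a fall of the kinase gene Camk4 (-1.32, SE 0.25). The kinase gene Mapk3 fell by 0.45 (SE 0.10, adjusted p = 0.0101). It was called in 14 of 17 refits, in which its log2 fold change ran from -0.55 to -0.19. Creb1 was at 56.9 CPM in I/R, against 63.2 CPM in sham (-0.15, SE 0.10, adjusted p = 0.264). Mapk3 and Creb1 were named after their values had been seen.

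Downstream of p75NTR, 30 genes were tested, and 11 rose and 6 fell (median 0.15, and 16 rises and 4 falls with library size alone). The rises were led by Myd88 (2.05, SE 0.18), an adaptor shared with Toll-like receptors. Jun (1.15, SE 0.14, adjusted p = 0.000965), Rela (1.08, SE 0.16, adjusted p = 0.00176) and Bax (0.80, SE 0.10, adjusted p = 0.00106), chosen after their values had been seen, also rose, and they serve many receptors other than p75NTR. The falls were led by the neuronal kinase gene Mapk10 (-0.86, SE 0.13) and Ndn (-0.70, SE 0.11), whose product binds p75NTR. The caspase gene Casp9 (-0.70, SE 0.12, adjusted p = 0.00283) and the kinase gene Mapk9 (-0.55, SE 0.13, adjusted p = 0.0115) fell too. Both were also chosen after their values had been seen. The share of tested genes called was 43.5% on the Trk list, 56.7% on the p75NTR list, 66.7% on the processing list and 62.5% among the Bdnf regulators, beside 41.8% of all genes tested.

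**Figure D5:**
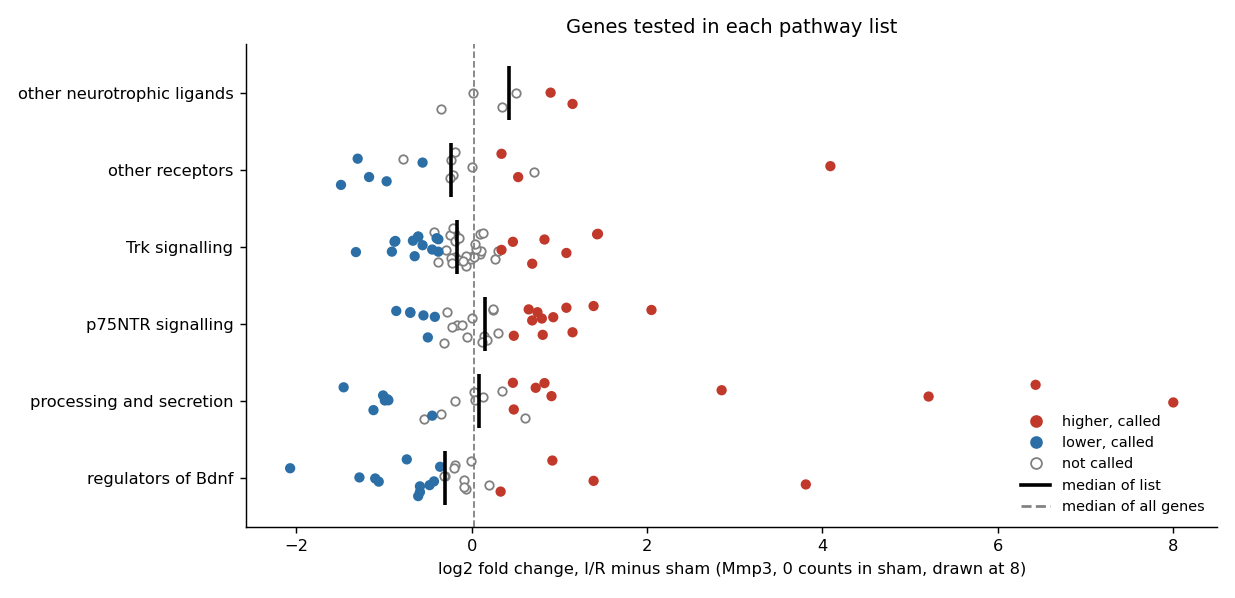
Log2 fold change (I/R minus sham) of each gene tested on 6 pathway lists, leaving out the 8 genes themselves, with called genes filled, list medians as black bars and the median of all genes as a dashed line. Mmp3, at 0 counts in sham, is drawn at 8. Called genes include both rises and falls on every list but that of other ligands, on which both called genes rose.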

How the data were processed

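RNA-seq was made from mouse hippocampus (3 I/R and 3 sham libraries, 37493042 to 44788547 counts each). According to the study's methods, the authors used TopHat2 for alignment to an Ensembl genome and HTSeq for counting. The submitters' processing notes list Bowtie 0.12.2 and mm8 instead, with no role. The deposited table gives raw counts and, per the file headers, FPKM, which the authors computed from the counts, the library total and a gene length that is shorter than the listed one for 14253 genes. It also holds the authors' own fold change and p-values, which were not used. Identifiers and coordinates are those of the BALB/cJ strain annotation, although the mice were C57BL/6 per the labels and C57BL/6J per the methods; 4 split lines were rejoined.

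Counts were tested with edgeR 4.0.16 (R 4.3.3; filterByExpr, TMM, robust glmQLFit, glmQLFTest, no covariates) and Benjamini-Hochberg adjustment over 18569 genes. The SE is the log2 fold change divided by the square root of F. Alternatives used DESeq2 1.42.0, limma 3.58.1 (voom, and log2 of FPKM with a pseudocount of 1 or 0.1), other scalings and filters, a replicate block, and left-out libraries; leaving out the 2 libraries low in choroid plexus markers was chosen after seeing the data. The script was tested on simulated data. The text names all ligand and receptor genes listed and, in each other list, the 2 called genes with the largest rise and the 2 with the largest fall; genes named later are marked. A few genes that this rule selects are not reported here. The 8 genes and all lists were chosen with earlier results of these data known. Bex3 was analysed under its older symbol Ngfrap1, and Ly6c2 was not analysed here. Same-numbered replicates did not deviate together (correlations -0.1, 0.06 and -0.18), so numbers were not treated as pairs. Intervals and floors cover counting error only.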

Additional observations from a re-analysis of the deposited data

How the results depend on the processing

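No log2 fold change of the 8 genes turned direction under any alternative, and the number called was 5 to 8. Bdnf and Sort1 were called throughout. Leaving out 1 library each, Ntf3 ran from -1.61 to -1.04 and Ngfr from 0.97 to 1.79, with calls lost as given above, Gdnf from 5.50 to 7.55, and all genes called from 5330 to 7976. On log2(FPKM + 1) Gdnf was at 0.94, since a pseudocount understates low genes, and it could not be tested with at least 10 counts required in every library. The replicate block lost Ngfr (1.38, adjusted p = 0.063) and changed no other call among the 8; over all genes it called 6332, of which 6254 were also among the 7756. Vgf passed with library size only (0.43), with log2(FPKM + 1) (0.42) and with log2(FPKM + 0.1) (0.43). In each of these fits Ntrk2 stayed called, at -0.31. Without the 2 libraries low in choroid plexus markers, Ntrk2 (-0.60) and Ngfr (1.28) were lost. With a fold change over 2 required, Ntrk2 (-0.57) and Ntrk3 (-0.96) were lost, and calls fell to 2760 over all genes, 1 other ligand, 4 other receptors, 4 Trk, 4 p75NTR and 7 processing genes and 6 Bdnf regulators. Other ligands fell to 1 call (Manf) with DESeq2 size factors, no count filter, the replicate block, the DESeq2 Wald test, voom, without the 2 libraries and without any 1 library (1 to 1). Bdnf regulators fell to 9 calls with library size only, with both FPKM fits and without the 2 libraries. Other causes of these changes were not tested. Depth limits Gdnf in sham, where 3 counts are 0.0738 to 0.0872 CPM, and Plg and Gfra3 in both groups.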
